A study of Mus musculus with 71 samples.

Results

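The 10 genes described here encode transcription factors of mesenchymal cells and of the epithelial to mesenchymal transition (EMT): Twist1, Twist2, Snai1, Snai2, Zeb1, Zeb2, Prrx1, Tcf21, Nr2f1 and Nr2f2. The chromatin loops of their promoters were taken as every loop with an anchor within 2 kb of a GENCODE transcription start site (TSS) of a member. By this rule 28 of the 24244 loops in the list belonged to the 10 genes, and 6 of the 10 had at least 1 loop. The rule itself uses gene names and positions, not loop values.

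Synovial sarcoma (SyS) is a soft tissue cancer driven by a fusion of SS18 to an SSX protein. The assay was H3K27ac HiChIP of 2 hSS2 tumors, which arose in mice that carry a human SS18::SSX2 cDNA at Rosa26 behind a floxed stop, after TATCre protein was injected into the hindlimb at day 8 of life. HiChIP ligates pieces of chromatin that lie close together and then pulls down those that carry a mark, here the acetylation of histone H3 at lysine 27 found at active promoters and enhancers. The tumors were bulk tissue with no other genotype or normal tissue beside them in this assay, so fewer cells of a type and less signal per cell cannot be told apart.

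EMT factors are DNA binding proteins that switch epithelial cells toward a migratory mesenchymal state. The Snail and Zeb families are zinc finger repressors that bind E-boxes (CANNTG, with CACCTG as the preferred form) in genes of cell adhesion such as Cdh1, and the Twist proteins are basic helix-loop-helix (bHLH) factors that bind E-boxes as dimers with E proteins. Tcf21 is a bHLH factor of fibroblast lineages, Prrx1 a homeodomain factor of limb bud mesenchyme, and Nr2f1 and Nr2f2 (COUP-TFI and COUP-TFII) are orphan nuclear receptors of many mesenchymal tissues. SyS can grow as spindle cells alone or with epithelial glands, which is why genes of both states are of interest in it.

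The list held 41574 paired-end tags, each a ligated read pair that joins the anchors of its loop. It was written as a first part of 13683 loops and 28657 tags and a second part of 10561 loops and 12917 tags, which could not be assigned to the tumors. With no values per tumor there is no replicate check, no test was made between samples, and the intervals given cover counting error only. Of markers of the tumor itself, 4 of 6 had a loop (Wilson 95% interval 30.0% to 90.3%, which includes the 45.8% of all protein-coding genes that had one), with 39 tags at Sox2, 4 at Tle1, 2 at Zic1 and 1 at Epcam, while Bcl2 and Krt8 had none. Of markers of other cells, 0 of 4 fibroblast markers (Dcn, Lum, Pi16 and Dpt), 0 of 5 immune markers, 1 of 6 skeletal muscle markers (2 tags, at Ckm) and 2 of 5 endothelial markers (4 tags) were looped. The Wilson intervals of the fibroblast (up to 49.0%), skeletal muscle (3.01% to 56.4%) and endothelial (11.8% to 76.9%) lists also include 45.8%. That of the immune list (up to 43.4%) does not. These lists are short, and loop counts do not measure cell shares.

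The sequences below are from anchors and promoters that the results describe, and the loop scores do not depend on them. The first 4 are the middle 300 bases of the distal anchors of the strongest loops of Nr2f2, Twist1 and Nr2f1 that end outside the gene, all on the plus strand of GRCm38, the assembly that mm10 denotes. The last 3 are the 250 bases before the TSS of Twist1, which was looped, and of Twist2 and Snai1, which were not, from the RefSeq promoter table of GRCm38.p6. Capitals mark the E-boxes CANNTG, which read the same way on both strands.
Nr2f2 anchor, chr7:70625285-70625584: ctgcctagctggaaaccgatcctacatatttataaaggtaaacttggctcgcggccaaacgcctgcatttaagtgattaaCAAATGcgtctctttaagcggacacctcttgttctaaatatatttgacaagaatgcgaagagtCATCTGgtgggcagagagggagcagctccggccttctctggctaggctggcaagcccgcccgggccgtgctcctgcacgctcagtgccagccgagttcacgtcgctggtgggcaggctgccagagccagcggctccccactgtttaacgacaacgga
Twist1 near anchor, chr12:33967924-33968223: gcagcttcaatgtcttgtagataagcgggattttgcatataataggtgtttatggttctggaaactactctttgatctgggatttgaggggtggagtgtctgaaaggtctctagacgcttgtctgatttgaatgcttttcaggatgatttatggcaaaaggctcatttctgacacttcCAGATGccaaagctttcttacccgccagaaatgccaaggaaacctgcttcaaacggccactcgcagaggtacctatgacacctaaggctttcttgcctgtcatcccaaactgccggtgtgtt
Twist1 far anchor, chr12:33716913-33717212: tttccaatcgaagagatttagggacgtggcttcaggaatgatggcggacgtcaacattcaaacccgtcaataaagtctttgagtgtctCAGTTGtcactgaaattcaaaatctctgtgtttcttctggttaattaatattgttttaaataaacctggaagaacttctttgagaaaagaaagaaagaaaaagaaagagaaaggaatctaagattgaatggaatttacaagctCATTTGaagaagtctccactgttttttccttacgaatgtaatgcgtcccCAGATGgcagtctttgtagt
Nr2f1 anchor, chr13:78427629-78427928: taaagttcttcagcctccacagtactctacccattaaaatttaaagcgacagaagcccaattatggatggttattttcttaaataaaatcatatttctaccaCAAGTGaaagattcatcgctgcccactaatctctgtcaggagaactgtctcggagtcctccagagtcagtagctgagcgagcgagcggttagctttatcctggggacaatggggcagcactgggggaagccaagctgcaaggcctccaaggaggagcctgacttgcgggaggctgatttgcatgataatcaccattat
Twist1 promoter, chr12:33957421-33957670, plus strand: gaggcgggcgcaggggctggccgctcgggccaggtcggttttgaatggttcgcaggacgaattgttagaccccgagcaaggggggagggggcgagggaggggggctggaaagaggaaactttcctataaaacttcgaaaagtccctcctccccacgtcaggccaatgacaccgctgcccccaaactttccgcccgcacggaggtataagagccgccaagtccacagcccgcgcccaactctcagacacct
Twist2 promoter, chr1:91801211-91801460, plus strand: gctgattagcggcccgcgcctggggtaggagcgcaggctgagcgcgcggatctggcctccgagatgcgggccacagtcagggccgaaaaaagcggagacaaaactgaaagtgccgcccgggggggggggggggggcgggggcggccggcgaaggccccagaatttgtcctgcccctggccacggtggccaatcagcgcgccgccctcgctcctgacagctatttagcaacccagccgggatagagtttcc
Snai1 promoter, chr2:167537945-167538194, plus strand: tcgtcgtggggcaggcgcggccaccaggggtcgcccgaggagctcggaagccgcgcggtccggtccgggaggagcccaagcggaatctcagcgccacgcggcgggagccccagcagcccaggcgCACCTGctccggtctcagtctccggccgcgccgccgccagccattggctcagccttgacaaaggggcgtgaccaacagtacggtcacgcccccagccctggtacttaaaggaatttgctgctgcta

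The middle of the Nr2f2 anchor held 2 E-boxes, that of the near Twist1 anchor 1, that of the far Twist1 anchor 3 and that of the Nr2f1 anchor 1. All anchors, over their whole width, had a median of 4.59 E-boxes per kb, so such counts in 300 bases were not unusual. Of the 3 promoters shown, only Snai1 held an E-box, and it was of the CACCTG form that Snail and Zeb proteins prefer. In windows of 300 bases, 250 before and 50 after a TSS, RefSeq gave 12 windows for 8 members, of which 2 of Zeb2 overlap, and Snai2 and Zeb1 were not matched. E-boxes occurred in 3 of these windows, 1 each of Snai1, Nr2f2 and Nr2f1, where 72.3% of all 32851 promoter windows held at least 1. The only window of Nr2f2 lies at its outermost TSS, 4.4 kb from the nearest anchor, so it is not a promoter that the loops of Nr2f2 reached. CACCTG or its complement CAGGTG occurred in 1 member window and in 20.2% of all windows. The half-site of nuclear receptors, AGGTCA or its complement TGACCT, occurred in 0 member windows and in 16.3% of all. CpG dinucleotides were many in the windows of Snai1 (34), Twist1 (27) and Twist2 (25), against a median of 7 over all windows, so that a looped and an unlooped Twist promoter did not stand apart in CpG content.

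Loops reached 6 of the 10 members, which compares with 45.8% of protein-coding genes and 23.9% of all GENCODE genes that had a loop. The 28 loops carried 71 tags, or 0.171% of all tags and 0.115% of all loops. Summed tags at a promoter, the loop score, had a median of 3 over the 10 members and of 9 over the 6 with a loop, where looped protein-coding genes had a median of 4 (quartiles 2 and 9). Scores of single members ranged from none to well above the upper quartile. In order of loop score these were Nr2f2 with 25 tags, Twist1 with 22, Nr2f1 with 10, Snai2 with 8, Prrx1 with 5, Zeb1 with 1, and Twist2, Snai1, Zeb2 and Tcf21 with 0. A count of 0 allows up to about 3 tags, or 3.69 by the exact Poisson 95% interval. The exact Poisson 95% intervals of neighbours in this order overlapped at every step, including Nr2f2 (16.2 to 36.9) and Twist1 (13.8 to 33.3), and Twist1 and Nr2f1 (4.80 to 18.4).

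**Figure D1:**
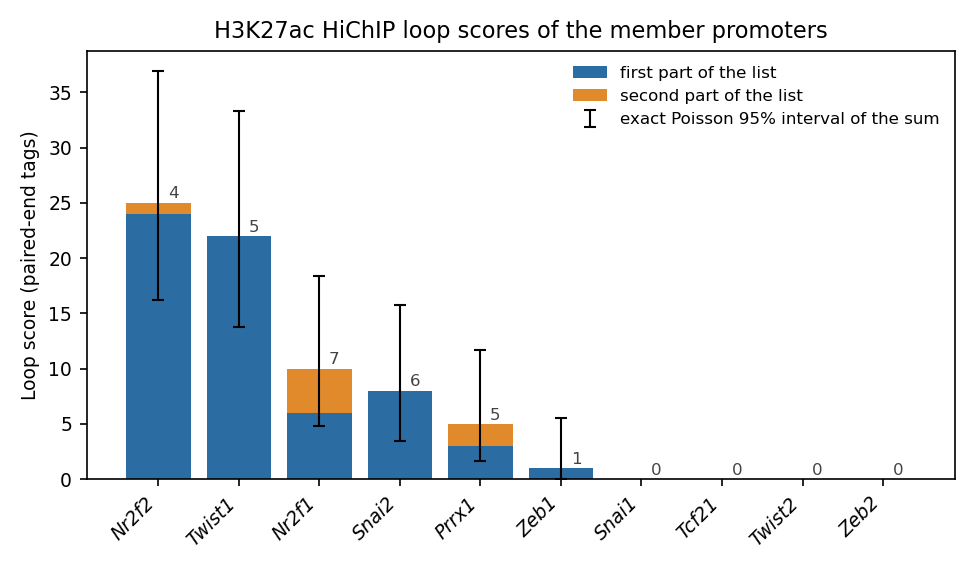
Bars give the loop score of each member in paired-end tags, colored by the part of the list the tags came from, with exact Poisson 95% intervals where tags were found and the number of loops printed beside each bar. Nr2f2 (25 tags) and Twist1 (22 tags) are highest, 4 members stand at 0, and the second part of the list adds tags only to Nr2f1 (4), Prrx1 (2) and Nr2f2 (1).

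Stricter readings left fewer members. A loop of at least 2 tags was found at 4 members (Twist1, Snai2, Nr2f1 and Nr2f2), where 21.2% of protein-coding genes had one. The same 4 had a loop with an FDR under 0.001, the value that the authors' loop caller assigned, where 11.2% of protein-coding genes did. A loop spanning under 100 kb was found at 2 members, Twist1 and Nr2f2, where 6.97% of protein-coding genes had one. Tags from both parts of the list were found at 3 members, Prrx1, Nr2f1 and Nr2f2, where 24.3% of protein-coding genes had them. Of all tags at members, 9.86% came from the second part, which held 31.1% of the tags of the whole list.

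Of the bHLH factors, Twist1 was looped and Twist2 and Tcf21 were not. Twist1 (ENSMUSG00000035799.6, chr12:33957671-33959829, plus strand), a factor of the head and limb mesenchyme, had 5 loops and 22 tags, all in the first part of the list. Its loop score was higher than that of 90.9% of looped protein-coding genes. The strongest loop had 15 tags (FDR 4.62e-04) and joined the promoter to an anchor at chr12:33967040-33969106, in intergenic sequence 10.4 kb downstream of the TSS. No TSS lay nearer to that anchor than that of Twist1 itself. Short loops had many tags in general, and 35 of the 176 loops of similar span, from 80% to 125% of its length, had at least 15 tags, with a median of 10.

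The next loop of Twist1 had 4 tags (FDR 2.32e-05) and ended at chr12:33714803-33719322, 240.6 kb upstream. No TSS lay within 127.1 kb of that anchor, and the nearest protein-coding TSS, that of the bHLH gene Ferd3l, was 209.1 kb away from it. Of the 2987 loops of similar span, 4.99% had as many tags. The other 3 loops of Twist1 had 1 tag each and spanned 528.3 kb to 1089 kb to the promoters of Twistnb (a subunit of RNA polymerase I, named for its place beside Twist1), Sypl with the lincRNA 4933406C10Rik, and Snx13. Both strong distal anchors of Twist1 also took part in single-tag loops with promoters that Twist1 reached. One such loop joined the near anchor to that of Sypl, one joined the far anchor to that of Snx13, and in the second part of the list one joined the far anchor to that of Twistnb.

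Twist2 (ENSMUSG00000007805.4, chr1:91801461-91848028, plus strand), a factor of dermal and other connective tissue, had no loop, so that the score of Twist1 was at least 7.33-fold higher when 3 tags are allowed at Twist2, a bound that leaves out the counting error of the 22 tags at Twist1. Of those 22 tags, 15 were in the short loop of 10.1 kb. The surroundings of Twist2 were not empty. The nearest anchor lay 181.0 kb from a TSS of Twist2, 7 loops passed over the gene, and 6 of its 9 protein-coding neighbours within 500 kb had a loop. Of the protein-coding genes without a loop, 36.4% lay at least as far from an anchor. Tcf21 (ENSMUSG00000045680.8, chr10:22817281-22820174, minus strand) also had none. Its nearest anchor was 87.0 kb away, close to the median of 91.8 kb over genes without a loop, and a single loop of 2 tags passed over it.

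Both zinc finger families had 1 member with loops and 1 without. Snai2 (ENSMUSG00000022676.7, chr16:14705852-14709385, plus strand), which encodes Slug, had 6 loops and 8 tags (exact Poisson 95% interval 3.45 to 15.8), all in the first part. Its loops were long, from 378.8 kb to 1597 kb, and none had more than 2 tags. A loop of 2 tags (FDR 5.31e-04) ended 1157 kb downstream at the promoter of Mzt2, which encodes a partner of the gamma-tubulin ring complex. Another of 2 tags (FDR 6.42e-04) ended 931.7 kb downstream at the promoter shared by Mcm4, a subunit of the replicative helicase, and Prkdc, the catalytic subunit of the DNA-dependent protein kinase. Of the 6 distal anchors of Snai2, 5 lay at promoters of other genes, the others being Yars2, Ntan1 with the miRNA gene Gm27734, and Mpv17l with Pdxdc1.

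The partners of Snai2 were also joined among themselves. Mcm4/Prkdc and Yars2 shared a loop of 2 tags, and Mzt2 and Yars2 shared a loop of 2 tags in the second part of the list, where Snai2 had none. The loop scores of these promoters (8 at Mzt2, 8 at Mcm4 and Prkdc, 11 at Yars2 and 13 at Ntan1) were at or above that of Snai2. Snai2 thus appeared as 1 promoter among several in loops between promoters, unlike Twist1 and Nr2f2, whose tags went mainly to anchors with no TSS.

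Snai1 (ENSMUSG00000042821.7, chr2:167538195-167542814, plus strand), which encodes Snail, had no loop, and the score of Snai2 was 2.67 times the 3 tags that a count of 0 allows at Snai1. The exact Poisson interval of the 8 tags reaches down to 3.45, below the 3.69 tags that a count of 0 allows, so these intervals overlapped. Such overlap does not decide whether the counts differ. No interval of the ratio was computed for Snai2 and Snai1, unlike for Nr2f2 and Nr2f1, so their separation at this depth was not tested. Snai1 lay in a well looped region, with 11 of 13 protein-coding neighbours within 500 kb looped. Passing over Snai1 were 21 loops of 22 tags, and the nearest anchor was 32.6 kb away. The loops around it passed by the only annotated TSS of the gene.

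Zeb1 (ENSMUSG00000024238.15, chr18:5591860-5775467, plus strand) had a single loop of 1 tag (FDR 0.0262) with a span of 1216 kb, which ended at the promoter of Mtpap, the mitochondrial poly(A) polymerase, and the antisense gene Gm26865. The anchor at Zeb1 also covered TSSs of Gm10125 and Gm2238, so the loop belonged to them as much as to Zeb1. Zeb2 (ENSMUSG00000026872.17, chr2:44983632-45117395, minus strand) had none at any of its 29 TSSs. Zeb2 was the most isolated member. Its nearest anchor lay 3215 kb away, no loop passed over the gene, and 1.84% of protein-coding genes without a loop lay as far from an anchor. A score of 1 against 0 did not separate the Zeb genes at this depth.

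Prrx1 (ENSMUSG00000026586.16, chr1:163245119-163313710, minus strand) had 5 loops of 1 tag each, 3 in the first part of the list and 2 in the second (interval of the sum 1.62 to 11.7). All 5 used the same anchor at the TSSs on the 5′ side of the gene. Of these loops, 2 went upstream, to the body of Kifap3 (597.5 kb span) and to the promoter of Slc19a2, a thiamine transporter. The other 3 went downstream to anchors 1276 kb to 1338 kb away, in or beside the gene Dnm3 and near the TSS of 4930558K02Rik. These 3 anchors were themselves joined by 2 loops of 9 tags each, with spans of 34.8 kb and 26.7 kb, and 4930558K02Rik had a loop score of 50. The loops of Prrx1 to that cluster came from both parts of the list, but none had more than 1 tag, the most common count in the list.

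Both nuclear receptor genes were looped. Nr2f2 (ENSMUSG00000030551.14, chr7:70351944-70366735, minus strand) had the highest score of the members, with 25 tags in 4 loops, of which 24 tags were in the first part of the list. Its score was higher than that of 92.5% of looped protein-coding genes. The loop with the most tags had 14 (FDR 0.00120) and joined the promoter to chr7:70350531-70352228, an anchor that overlaps the last exon at the 3′ end of Nr2f2, so it spanned 8.80 kb within the gene. Of the 178 loops of similar span, 42 had at least as many tags, and the median was 10. The loop thus lay within the range of short loops.

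The second loop of Nr2f2 did not. It had 8 tags (FDR 1.90e-13) and ended at chr7:70624217-70626651, in intergenic sequence 258.7 kb upstream and 11.96 kb from the nearest TSS, that of Gm44808. Only 11 of the 2868 loops of similar span, or 0.384%, had as many tags. A further loop of 2 tags (FDR 7.48e-04, 704.2 kb) and 1 of a single tag in the second part (366.4 kb) ended downstream, again away from any TSS. No distal anchor of Nr2f2 lay at the promoter of another gene, no protein-coding gene other than Nr2f2 had a TSS within 500 kb, and no loop passed over it. The loops used 5 of the 6 TSSs of Nr2f2, and the outermost TSS at position 70366735 was not reached.

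**Figure D2:**
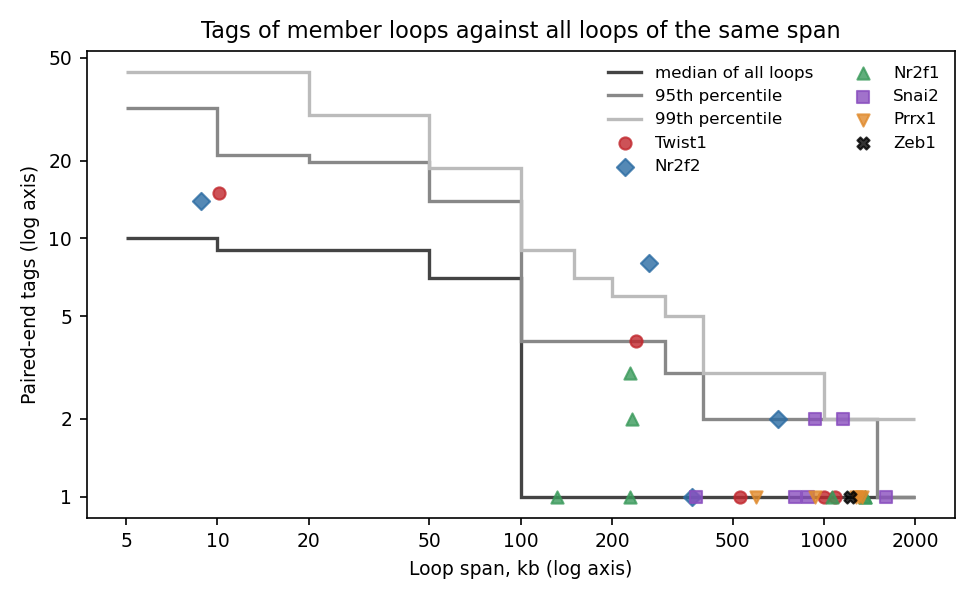
Each symbol is a loop of a member, placed by its span in kb and its paired-end tags (log axes), and the step lines give the median, the 95th and the 99th percentile of tags over all loops of the same range of span. The 8-tag loop of Nr2f2 at 265.3 kb lies above the 99th percentile, the short loops of Twist1 (15 tags) and Nr2f2 (14 tags) lie between the median and the 95th percentile, and most others are single tags.

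Nr2f1 (ENSMUSG00000069171.14, chr13:78188973-78199757, minus strand), the paralog of Nr2f2, had 7 loops and 10 tags, 6 in the first part and 4 in the second. Of these, 6 tags in 3 loops went to a single anchor at chr13:78425846-78429711, 228.0 kb upstream, which covers the TSS of the lincRNA Gm31946. The strongest had 3 tags (FDR 8.30e-04), a second had 2 tags from another anchor of the Nr2f1 promoter, and the third, of 1 tag, joined the same pair of anchors as the strongest in the second part of the list. That pair of anchors was therefore listed in both parts. Of the 3063 loops of similar span, 13.4% had at least 3 tags. The other loops had 1 tag each, with 2 to the same anchor in the body of Mctp1, 1 to the promoter of Slf1 and 2210408I21Rik, and 1 to an intergenic anchor 127.5 kb upstream. The antisense gene A830082K12Rik starts beside Nr2f1 and shared 5 of the loops and 7 of the tags, and loops have no strand, so the genes cannot be told apart there.

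The score of Nr2f2 was 2.50 times that of Nr2f1 (exact 95% interval 1.16 to 5.83, counting error only), but this order rested on the first part of the list. The ratio also rested on the loop of 8.80 kb within Nr2f2, which held 14 of the 25 tags and lay within the range of short loops. Nr2f1 had no loop under 131.8 kb, and no ratio without the short loop was computed. Nr2f2 had 24 tags and Nr2f1 6 in the first part, and Nr2f2 had 1 and Nr2f1 4 in the second. Both had their strongest long loop to an anchor upstream, at 258.7 kb for Nr2f2 and 228.0 kb for Nr2f1, but only that of Nr2f1 lay at an annotated TSS, that of a noncoding gene.

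**Figure D3:**
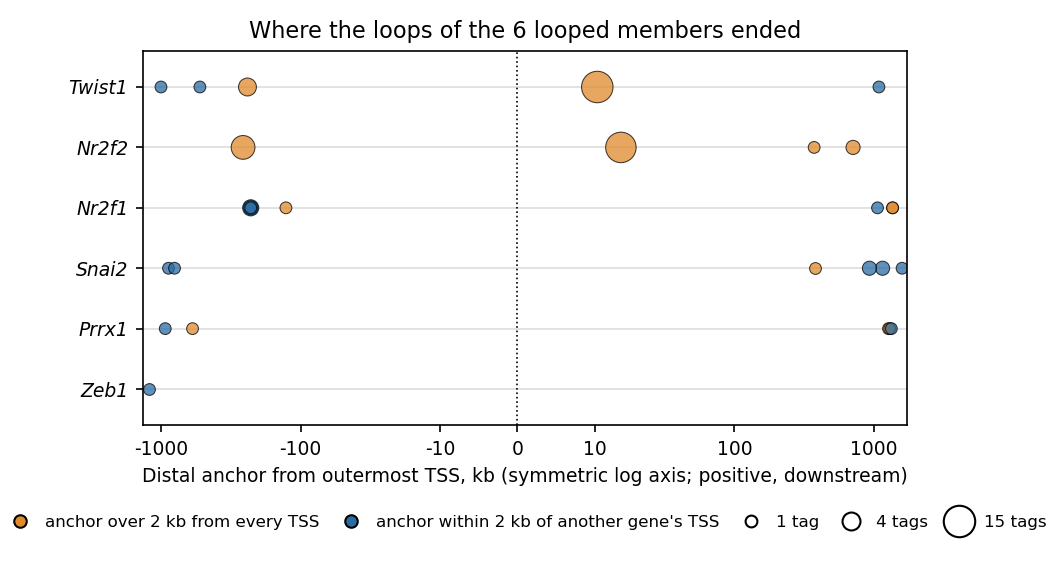
Distal anchors of the 6 looped members are placed by their distance in kb from the outermost TSS of the gene (symmetric log axis, negative values upstream), with area by tags and color by whether the anchor lay within 2 kb of a TSS of another gene. The largest symbols, of Twist1 (15 and 4 tags) and Nr2f2 (14 and 8 tags), are anchors away from every TSS, and those of Snai2 are mostly at other promoters and far away.

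Members differed in what their loops reached. Over all 6 looped members there were 25 distinct distal anchors, of which 13 (52.0%, Wilson 95% interval 33.5 to 70.0) lay within 2 kb of a TSS of another gene. The interval takes the anchors as independent, though those of a member went together, mostly at promoters for Snai2 and at none for Nr2f2. It is therefore too narrow for a comparison of genes. Over all looped protein-coding genes, 79.0% of 15000 distal anchors did. Anchors away from TSSs took 51 of the 71 tags of the members (71.8%) in 13 loops, while anchors at other promoters took 20 tags in 15 loops. Over the loops of all looped protein-coding genes, each counted once per gene, anchors with no TSS of another gene took 11.1% of tags. That count takes a loop again for each such gene at either anchor, so loops between promoters weigh more in it. The member loops each counted once, so these shares by tags are not like for like. Of the 51 tags, 14 went to the anchor at the 3′ end of Nr2f2, 2.84 kb from the nearest TSS and so not far outside the 2 kb window, and without that loop the share was 37 of 57 tags (64.9%). Of the 12 anchors away from TSSs, 5 lay in gene bodies and 7 outside, at a median of 24.1 kb from the nearest TSS (2.84 to 127.1 kb). The share by tags rested on Twist1 and Nr2f2, whose 4 loops of at least 4 tags held 41 tags, 57.7% of those of the members.

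Most member loops were single tags, as were most loops of the list, with 19 of 28 (67.9%, Wilson 95% interval 49.3 to 82.1) against 78.0% of all loops. Loops of at least 4 tags made up 4 of the 28, and 6.74% of all loops. An FDR under 0.001 was given to 7 of the 28 (25%) and to 8.06% of all. The median span of the member loops was 844.8 kb (8.80 to 1597 kb), where that of all loops was 500.3 kb, but it was 240.9 kb over the member loops of at least 2 tags. Loops under 20 kb were 2 of the 28 but held 29 tags, 40.8% of member tags where such loops held 14.8% of all tags. No member loop spanned 20 to 100 kb, a range that held 2.85% of all loops. The range from 100 kb to 1 Mb held 15 member loops with 30 tags and 73.4% of all loops. Longer spans held 11 member loops with 12 tags and 21.5% of all loops.

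The bases of the anchors differed by their place. The 9 promoter anchors of members had a median GC content of 58.6% (47.9 to 67.9), the 13 distal anchors at promoters of other genes 50.5% (43.7 to 55.1) and the 12 away from TSSs 45.2% (40.3 to 54.1), where the median of all anchors was 51.3%. CpG dinucleotides followed the same order, with medians of 57.6, 40.0 and 15.02 per kb. E-boxes had medians of 3.70, 4.91 and 4.82 per kb, near the median of 4.59 per kb over all anchors. The promoter anchor of Twist1 was the poorest in E-boxes of these anchors, with 1.23 per kb. By these medians, which weigh each anchor alike, anchors away from TSSs were low in GC and CpG but close to all anchors in E-boxes. Those with the most tags differed. The near anchor of Twist1 (15 tags) had 54.1% GC and 38.7 CpG per kb, and that at the 3′ end of Nr2f2 (14 tags) 50.6% and 44.8 per kb. The Nr2f2 anchor of 8 tags had 51.9% and 22.6 per kb, and the far Twist1 anchor of 4 tags 40.6% and 12.4 per kb. All anchors had a median of 32.8 CpG per kb.

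Member genes had fewer neighbours than most. They had a median of 2.5 protein-coding genes within 500 kb, where all protein-coding genes had 16. The looped share of protein-coding genes was 33.8% with 0 or 1 such neighbours, 42.4% with 2 to 5, 45.2% with 6 to 10 and 47.7% with more. Nr2f2, the member with the highest score, and Zeb2, the member farthest from an anchor, had 0 and 1 neighbours, so both ends of the range were found in gene-poor regions. Whether gene density played a part in the loop scores of the members, or in their share of distal anchors away from TSSs, was not tested.

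Genes that act with the members were described by lists, where 45.8% of protein-coding genes with a loop is the background for each. The dimer partners and inhibitors of bHLH factors were looped throughout, with 7 of 7 genes and a median loop score of 16. The E proteins Tcf4 (79 tags) and Tcf3 (53 tags), with which Twist and Tcf21 proteins pair, and Id3 (34 tags), which sequesters E proteins, were highest. Corepressors that Snail and Zeb proteins recruit were looped in 10 of 11 cases with a median of 9, among them Hdac1 (14 tags) and Ncor1 (12 tags), with Hdac2 alone at 0. Corepressors of this kind are used by many cell types.

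Inducers of EMT were looped in 12 of 14 cases with a median of 4. The NF-kB subunit Rela (44 tags), the chromatin protein Hmga2 (36 tags) and Stat3 (13 tags) were highest, and the receptor Tgfbr2 and Hif1a had none. By contrast, 7 of 20 other mesenchymal and EMT transcription factors were looped, with a median of 0 and no score over 5. The highest were Nr2f6 (5 tags), a relative of Nr2f1 and Nr2f2, Gsc (3 tags) and Hand2 (2 tags, as had Klf8, Mef2c and Osr2). Among those without a loop were Snai3, Prrx2, Foxc2, Osr1, Meox1, Meox2, Tcf15, Scx, Hand1, Alx1, Alx4 and Tbx18.

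Of the genes that such factors act on, 8 of 21 mesenchymal effectors were looped (20.8% to 59.1%, which includes the background) with a median of 0. Pdgfra (41 tags), a growth factor receptor of mesenchymal progenitors, stood first, followed by the matrix protease Mmp14 (12 tags) and by Itga5 and Vim (5 tags each). The matrix and contractile genes Col1a1, Col1a2, Col3a1, Sparc, Postn, Tnc, Acta2, Tagln, Mmp2 and Lox had none, nor did S100a4, Thy1 and Pdgfrb. Epithelial genes that EMT factors repress were looped in 10 of 19 cases (31.7% to 72.7%, which also includes the background) with a median of 1. Esrp2 (7 tags), a splicing regulator of epithelial cells, and the polarity and junction genes Crb3 and Tjp3 (6 tags each) were highest. Cdh1, the E-cadherin gene and best known target of Snail and Zeb proteins, had no loop, and neither did Cldn3, Cldn4, Cldn7, Krt8, Krt19, Dsp, Ovol1 and Ovol2.

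**Figure D4:**
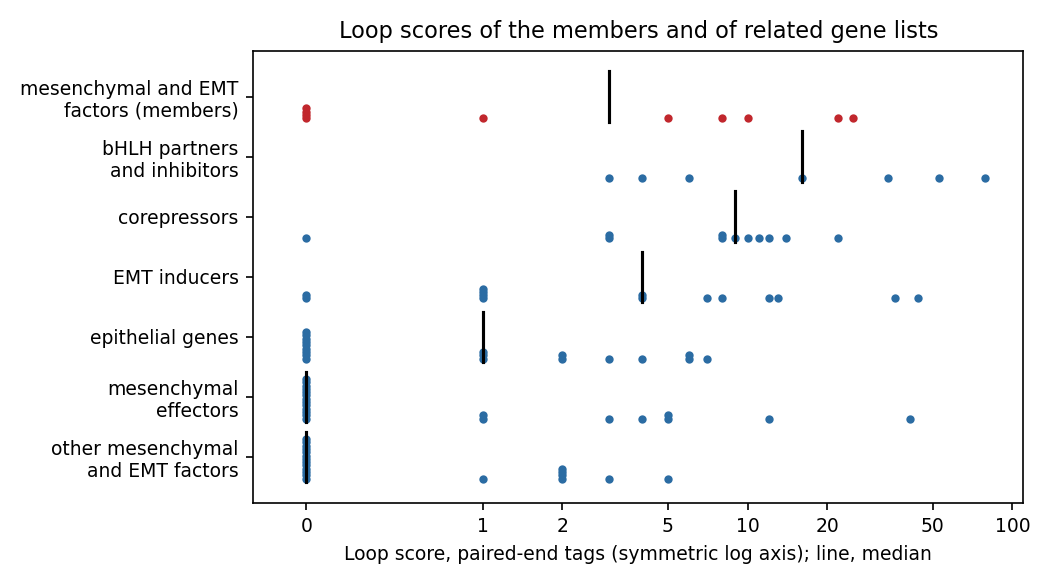
Each point is the loop score of a gene in paired-end tags (symmetric log axis), for the members and for 6 lists of genes that act with them, and the vertical line is the median of each list. The members range from 0 to 25 tags, the bHLH partners have no gene at 0, and the other mesenchymal and EMT factors reach at most 5 tags.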

How the data were processed

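The data are H3K27ac HiChIP of 2 hSS2 tumors. The authors aligned reads to mm10 by HiC-Pro, used hichipper to call loops and merged those of the tumors, with the way of merging not given in the sources used here. The deposited list gives each loop an unnormalized count of paired-end tags. It also gives the FDR assigned by the authors' caller (Mango), a p-value adjusted for multiple testing, with a threshold of 0.05 in the methods and of 0.01 in a legend of the study. ChIP-seq libraries were not analysed here.

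Loops were assigned in Python 3.11.15 (pandas 2.3.3, numpy 2.4.6, matplotlib 3.10.9, scipy 1.17.1) to GENCODE vM21 genes with a TSS within 2 kb of an anchor. The span is the distance between anchor midpoints, and loops listed more than once (115) were kept. The depth was 41574 tags, which leaves single loops imprecise. Wilson 95% intervals are for shares and exact Poisson 95% intervals for counts. The assignment was tested on planted loops. No test was made, since there are no values per tumor. Members and lists were chosen with earlier results of these data known. By rule, each member was named with its strongest loop, up to 3 further loops of at least 2 tags and up to 2 genes sharing the most tags, and of each list the 3 highest genes and those without a loop, except for 2 genes not reported here. Other genes at anchors, including Ferd3l, were named after their values were seen. The alternatives included promoter windows, FDR and tag minimums, and each part of the list alone.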

Additional observations from a re-analysis of the deposited data

How the results depend on the processing

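Under 12 alternatives, 50 of 60 values for the members together and 105 of 120 loop scores of single members were counted as unmoved, by a rule of counting error or 1.5 times. The 50 include the median span with an FDR under 0.001 and for loops up to 1 Mb. Both of these fell by more than 1.5 times, so the 50 overstate how stable the values were. The loop scores include the 4 members without a loop, which stayed at 0 throughout. For these members the limits on FDR, tags, span and part can only remove loops, so their scores could not move under them. Of the loop scores, Zeb1 and Prrx1 fell to 0 with an FDR under 0.001, with one under 0.01 or with at least 2 tags, and Zeb1 was also at 0 for loops up to 1 Mb. An FDR under 0.01 already left 3 tags at Nr2f1, as did one under 0.001, which also left 10 at Nr2f2. Single-tag loops made up 0% of the 8 loops with an FDR under 0.01, of the 7 with an FDR under 0.001 and of the 9 with at least 2 tags, since those limits remove them. The median span fell from 844.8 kb to 253.1 kb with an FDR under 0.01, 265.3 kb with one under 0.001, 240.9 kb with at least 2 tags and 366.4 kb for loops up to 1 Mb. An FDR under 0.01, which a legend of the study names, left 4 looped members, and one under 0.001 left 36 tags. The second part of the list alone gave 3 looped members, 7 tags, a share of 100% single-tag loops and 1 of 6 distal anchors near a TSS (16.7%), with Twist1, Snai2 and Zeb1 at 0, Nr2f1 at 4, Prrx1 at 2 and Nr2f2 at 1, which turns the order of Nr2f2 and Nr2f1 and puts Prrx1 above Nr2f2 and Twist1. The cause was not tested. The scores of Nr2f2, Twist1 and Snai2 thus rest on the first part of the list, which kept 6 looped members and 64 tags. With 71 tags in all, scores under about 5 tags could not be ordered, and a promoter without a loop may still have contacts below this depth.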
